A study of Mus musculus with 4 samples.

Results

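The Wnt pathway genes here are 52 of 21887 RefSeq protein-coding genes of the mouse GRCm38 build, on chromosomes 1 to 19, X and Y. Membership was set by symbol, with earlier results of these data known. They are 19 ligands (every Wnt gene), 12 receptors (10 Frizzled genes with the co-receptor genes Lrp5 and Lrp6) and 21 regulators. The regulators comprise 8 secreted inhibitors of the Sfrp and Dkk families, 9 cytoplasmic components (Dvl1 to Dvl3, Axin1, Axin2, Apc, Ctnnb1, Gsk3a and Gsk3b) and 4 TCF/LEF transcription factors. A gene was counted as having a summit when the summit of a deposited peak lay within its span extended by 30 kb on both sides. By that count 16 of the 52 genes had a summit, 30.8%, against 32.4% of all protein-coding genes, and the count on its own therefore does not set the pathway apart.

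The series set 3 immunoprecipitated (IP) fractions against 1 input, all from mouse striatum. IgG-coated magnetic beads were used for the IP fractions, and no antibody for the input. The title gives the animals as Gad2CrexThraGS and the precipitated protein as GS-TRa1, the tagged thyroid hormone receptor alpha 1, without a genotype for each library, and the labels give no age, sex or hormone treatment. Gad2 encodes a GABA-synthesising enzyme, and its Cre driver acts in GABAergic neurons, while the chromatin came from the whole tissue. The labels do not state whether the tag depended on Cre. An IP from striatum without the tag was not analysed here, so receptor binding and unspecific recovery of chromatin by the beads cannot be told apart. The deposited data are 1 list of 7484 peaks for the whole series, with no value per library. No spread between fractions can therefore be given, and each peak below has the authors' own single value.

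Wnt proteins are secreted lipid-modified ligands that bind Frizzled receptors, and in the canonical branch they also engage the co-receptors LRP5 and LRP6. The signal passes through Dishevelled proteins and stops a complex of Axin, APC and glycogen synthase kinase 3 from marking β-catenin for destruction. β-Catenin, encoded by Ctnnb1, then acts in the nucleus with TCF/LEF factors. In brain the pathway is known for patterning, for vessel growth and for synapse formation. The receptor TRα1 is a ligand-dependent transcription factor that binds DNA mostly with a retinoid X receptor, at paired copies of an element related to AGGTCA.

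The roles differed in where their nearest summits lay. Among regulators 8 of 21 genes had a summit, 38.1%, among ligands 6 of 19, 31.6%, and among receptors 2 of 12, 16.7%, against 32.4% of all protein-coding genes. A single gene amounts to 4.76%, 5.26% and 8.33% of these 3 roles, so the shares are coarse, and the differences between roles were not tested. With only the 3986 peaks whose deposited −log10 q was at least 10, regulators fell below the background, with 4 of 21, 19.0%, against 20.4% of all protein-coding genes, while ligands had 4 of 19 and receptors 1 of 12. The regulators Ctnnb1, Dkk2, Lef1 and Tcf7l2 had no summit at that threshold. With all peaks, 5 of 9 cytoplasmic components and 2 of 4 TCF/LEF genes among the regulators had a summit, but 1 of 8 secreted inhibitors did. Summits lay inside the gene span for 5 of 21 regulators, 23.8%, 1 of 19 ligands, 5.26%, and 0 of 12 receptors. The share of all protein-coding genes with a summit inside was 13.7%. The median distance from a gene to its nearest summit was 45.2 kb for regulators, 62.3 kb for ligands and 113 kb for receptors, against 82.0 kb for all protein-coding genes.

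**Figure D1:**
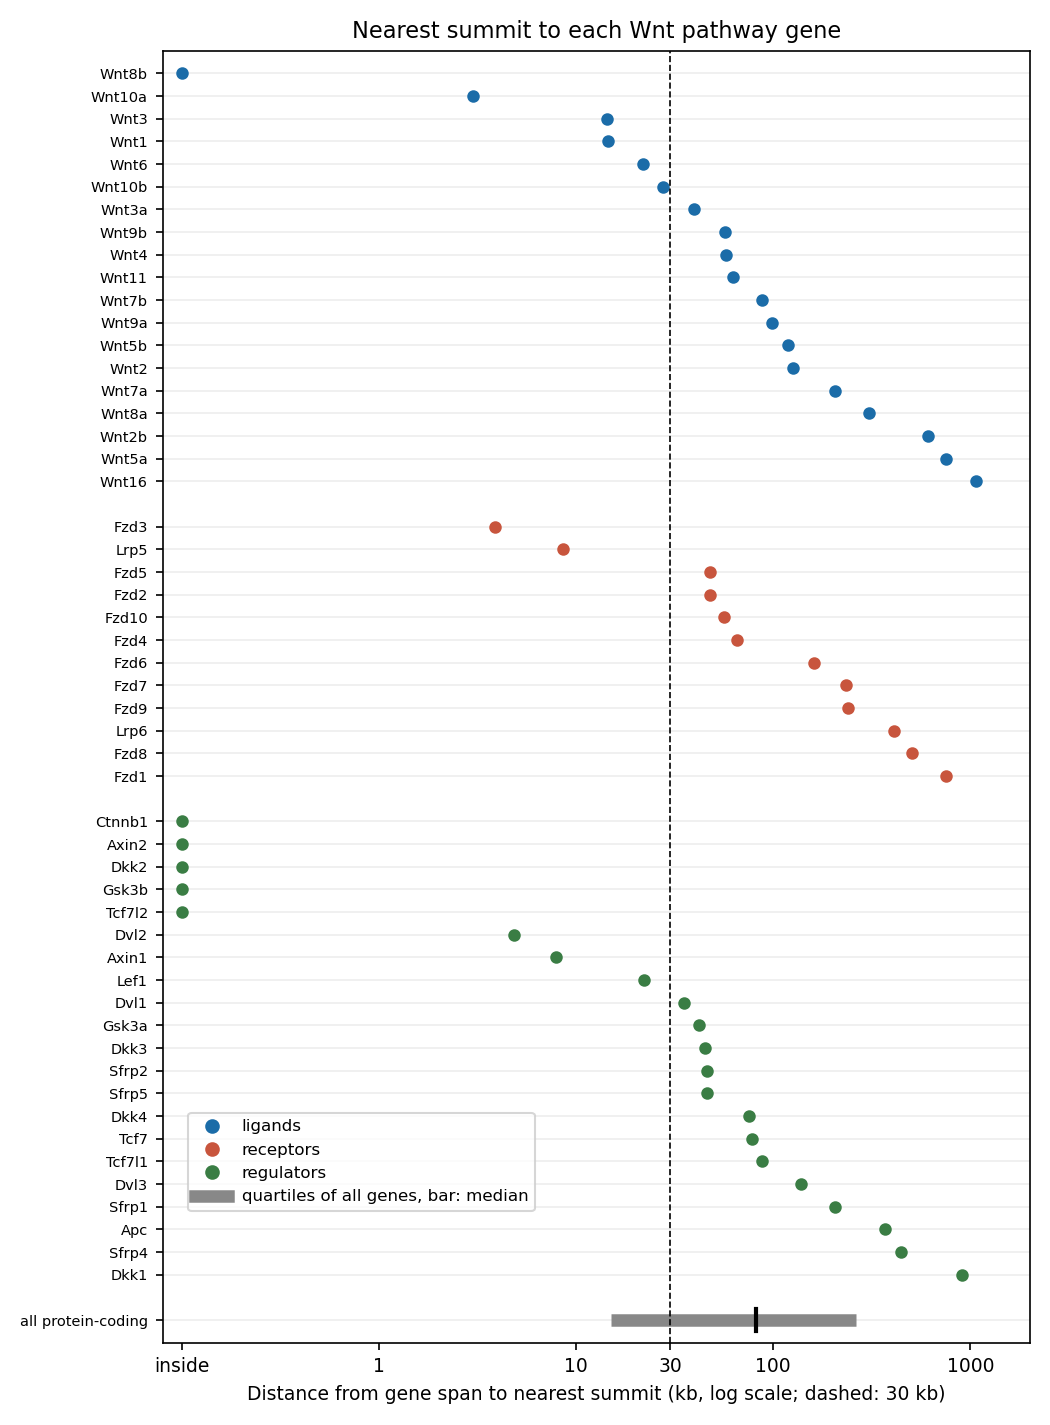
Distance in kb (log scale) from the span of each of the 52 genes to its nearest summit, by role, with the quartiles and the median of all protein-coding genes at the bottom and a dashed line at 30 kb. Genes with a summit inside are drawn at the left edge: 5 regulators and Wnt8b, and no receptor.

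Gene length runs alongside these roles. The median span was 33.0 kb for regulators, 22.9 kb for ligands and 5.28 kb for receptors, against 17.2 kb for all protein-coding genes. Within the regulators it was 138 kb for TCF/LEF genes, 27.1 kb for cytoplasmic components and 9.11 kb for secreted inhibitors. A longer gene has a wider window. Among the longest 4378 protein-coding genes, with spans over 57.1 kb, 7 of 11 pathway genes had a summit, against 48.2% of all genes of that length. These 7 were Axin1, Dkk2, Fzd3, Gsk3b, Lef1, Lrp5 and Tcf7l2. Among shorter genes, 9 of 41 pathway genes had a summit, 22.0%, against 28.5% of all 17509 genes of those lengths. The part of gene length in the order of the roles, or of the groups within the regulators, was not tested.

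The 16 genes were reached by 22 distinct summits. Their fold enrichment over local background had a median of 6.72 and a range of 4.01 to 51.9. Their backgrounds ran from 1.89 to 3.00. Many of the summits shared the lowest background, and among those the fold follows summit height alone. The whole list had a median fold of 6.91 with quartiles of 5.55 and 9.73. Folds of 10 or more made up 22.7% of these summits, 5 of 22, against 23.9% of all peaks. Summit heights were recovered as whole fragments and ran from 12 to 163 with a median of 24, where the list had 10 to 305 with a median of 23. Each fold below carries a 95% exact Poisson interval from its number of fragments. These intervals cover counting error only, on peaks that were called for their height, and PCR copies are not separate molecules. For 12 of the 22 summits a protein-coding gene outside the 52 was the nearest.

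**Figure D2:**
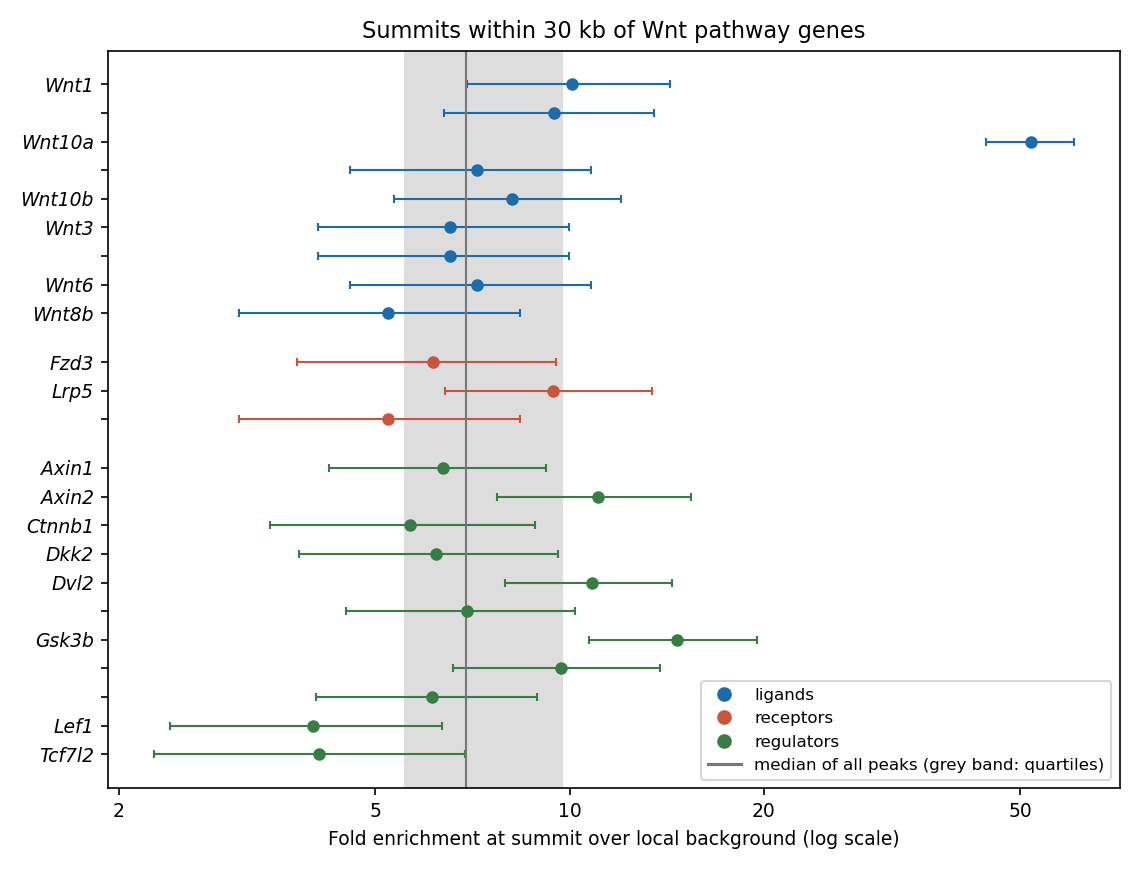
Fold enrichment (log axis) of each summit within 30 kb of a Wnt pathway gene, coloured by role, with 95% exact Poisson intervals. The 23 points stand for 22 summits, since Wnt6 and Wnt10a share the summit of 7.17. The Wnt10a summit of 51.9 stands alone, and most others fall within the grey quartile band of all peaks, from 5.55 to 9.73.

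Wnt10a, a ligand gene known for its role in tooth and skin appendages, had the highest value. Its summit of 51.9 (44.3 to 60.5) rested on 163 fragments over a background of 1.97 and had rank 4 of the 7484 peaks by fold. The peak, at chromosome 1, 74816506 to 74817126, lay 12778 bp beyond the higher-coordinate end of Wnt10a, and its summit was 137 bp from the transfer RNA gene n-TGgcc3. No protein-coding gene other than Wnt10a lay within 30 kb of that summit. Its interval overlapped that of none of the other 21 summits, whose highest upper bound was 19.5. A weaker peak at 74807026 to 74807309 had a fold of 7.17 (4.57 to 10.8), 3004 bp from Wnt10a. The neighbouring ligand gene Wnt6 was reached by that weaker peak, at 21858 bp, and missed the strong one by its border, with a distance of 31632 bp.

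The transfer RNA gene is a measured neighbour of the strongest value. Of the 22 summits, 2 lay within 1 kb of a transfer RNA gene, against 43 of all 7484 summits, 0.575%. The other was a summit near Lrp5, 5 bp from n-TAagc9. The median fold of the 43 was 5.74, below the 6.91 of the whole list. Whether the transfer RNA genes have a part in either summit was not tested.

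Wnt1 and Wnt10b lie side by side on chromosome 15, and 3 summits flanked the pair without falling in either gene. Wnt1, the ligand gene of midbrain patterning, was reached by a fold of 10.1 (6.93 to 14.3) at 14576 bp and by 9.45 (6.39 to 13.5) at 19217 bp, both on its downstream side. The summit of 10.1, at chromosome 15, 98808284 to 98809009, was 481 bp from Ddn, the gene of the postsynaptic protein dendrin. The summit of 9.45, at 98812888 to 98813218, was inside Prkag1, which encodes a subunit of AMP-activated kinase. Wnt10b, known from fat and bone precursors, was reached at 27520 bp by a fold of 8.15 (5.34 to 12.0), which lay inside the small GTPase gene Arf3 and nearest to the 30 kb border of all marked pathway genes. The 3 intervals overlap, so their order is not resolved at this depth.

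Wnt3, a ligand gene of axis formation, had a pair of summits of equal fold, 6.52 (4.07 to 9.99), each of 19 fragments. They lay 14404 bp and 17415 bp downstream of the gene on chromosome 11, at 103832296 to 103832514 and 103835316 to 103835533. Both were inside Nsf, the gene of a membrane fusion ATPase of synaptic vesicle traffic. Wnt9b, which adjoins Wnt3, was 57153 bp from the nearer of the pair and so had none. Wnt8b, a ligand gene of the embryonic forebrain, was the only ligand gene with a summit inside its own span, a fold of 5.22 (3.07 to 8.39) on 15 fragments at chromosome 19, 44510659 to 44510932. Exons and introns were not separated here.

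The other 13 ligand genes had no summit within 30 kb: Wnt2, Wnt2b, Wnt3a, Wnt4, Wnt5a, Wnt5b, Wnt7a, Wnt7b, Wnt8a, Wnt9a, Wnt9b, Wnt11 and Wnt16. Their nearest summits were 39.8 kb away for Wnt3a and 1068 kb away for Wnt16, with the rest between. Wnt7a and Wnt7b, ligand genes of brain vessel growth, were 206 kb and 88.2 kb from their nearest summits. Wnt5a, the ligand best known from non-canonical signalling, was 748 kb away.

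Receptor genes had the fewest. Of 10 Frizzled genes only Fzd3, known for axon tract guidance, had a summit, a fold of 6.14 (3.78 to 9.51) on 18 fragments at chromosome 14, 65266240 to 65266506. That summit was 3892 bp beyond the higher-coordinate end of Fzd3 and 263 bp from Fbxo16, an F-box protein gene. Fzd1, Fzd2, Fzd4, Fzd5, Fzd6, Fzd7, Fzd8, Fzd9 and Fzd10 had none. Fzd2 and Fzd5 came nearest, at 48.1 kb and 48.0 kb, and the summit nearest to Fzd2 had a fold of 19.9 inside Gpatch8. Fzd1 was 756 kb from a summit.

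The co-receptor gene Lrp5 had summits on both sides of its span, while its paralogue Lrp6 had none nearer than 411 kb. At chromosome 19, 3707932 to 3708175, a fold of 9.41 (6.41 to 13.4) lay 21487 bp beyond the higher-coordinate end of Lrp5. That summit was 221 bp from the protein-coding gene 1810055G02Rik and inside its promoter window. At 3576154 to 3576364 a fold of 5.22 (3.07 to 8.39) lay 8567 bp from the lower-coordinate end and 225 bp from Ppp6r3, a phosphatase subunit gene. The 2 intervals overlap. No receptor gene was the nearest protein-coding gene of any summit within 30 kb.

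Gsk3b, which encodes the β form of glycogen synthase kinase 3, had 3 summits, the most of the 52 genes. The share of all protein-coding genes with 2 or more was 10.9%, and 6 of the 52 pathway genes had as many. At its 5′ end, chromosome 16, 38088410 to 38089111, a peak of 9.69 (6.60 to 13.8) and 29 fragments had its summit 30 bp upstream of the annotated start. Inside the gene a summit of 14.6 (10.7 to 19.5) on 44 fragments lay 81020 bp from the start, in the peak at 38169890 to 38170184. A neighbouring summit of 6.12 (4.05 to 8.91) on 25 fragments lay 77342 bp from the start. The fold intervals of the 2 inner summits do not overlap, whereas that of the summit at the start overlaps both. Those folds use fixed backgrounds of 1.89 for the stronger and 3.00 for the weaker inner summit. The fragment intervals of the 2 inner summits, 32.0 to 59.1 and 16.2 to 36.9, do overlap. The long non-coding gene BC031361 also spans the summit at the start. Gsk3a, the paralogue, had none within 30 kb and was 41.8 kb from the nearest.

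Promoter windows of RefSeq, GRCm38.p6, from 250 bases before to 50 after a gene start, were matched for 36 of the 52 genes, and a peak overlapped the window of 2 of them, Gsk3b and Dkk2, 5.56%. For all protein-coding genes with a window the share was 3.97%. The windows of both genes are shown because a peak overlapped them. The start of Gsk3b lay under its peak. The Dkk2 start, at 132085292, lay just before its peak, which begins at 132085299, and the Dkk2 summit lies beyond the window. Capitals mark the bases within 50 bp of the summit, and both are given on the plus strand. Gsk3b is chr16:38088751-38089050, wholly under its peak, and Dkk2 is chr3:132085042-132085341, of which the last 43 bases lie under its peak.
Gsk3b: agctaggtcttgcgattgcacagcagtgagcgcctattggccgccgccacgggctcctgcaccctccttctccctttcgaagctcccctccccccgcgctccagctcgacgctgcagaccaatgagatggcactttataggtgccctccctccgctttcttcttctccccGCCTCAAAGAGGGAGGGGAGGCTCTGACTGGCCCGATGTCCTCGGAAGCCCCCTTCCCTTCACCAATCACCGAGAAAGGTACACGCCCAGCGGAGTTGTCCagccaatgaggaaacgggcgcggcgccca
Dkk2: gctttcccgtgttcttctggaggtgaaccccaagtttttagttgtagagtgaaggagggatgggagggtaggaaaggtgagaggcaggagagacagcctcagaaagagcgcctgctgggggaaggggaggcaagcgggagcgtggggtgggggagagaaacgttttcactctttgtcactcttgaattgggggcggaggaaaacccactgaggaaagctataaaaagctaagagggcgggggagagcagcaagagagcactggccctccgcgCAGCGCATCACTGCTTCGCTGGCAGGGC

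The Gsk3b window was 63.0% G and C with 21 CpG dinucleotides, and the Dkk2 window 57.7% with 11. The median over protein-coding windows was 56.3% with 13 CpG dinucleotides, and over those that overlapped a peak 62.0% with 22. Neither window held the receptor element AGGTCA on either strand, which was present in 14.7% of protein-coding windows and in 14.6% of those that overlapped a peak. Neither held the TCF/LEF core CTTTGAT, found in 3.22% of protein-coding windows. The spaced pair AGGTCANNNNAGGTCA, searched on both strands, occurred in 0 of 21263 protein-coding windows. The element AGGTCA overlaps this pair by construction. Among the 45 windows of pathway genes, AGGTCA was found in those of Tcf7 and Wnt16 and CTTTGAT in those of Wnt11 and Wnt5b, and none of these was overlapped by a peak. A match or its lack in these windows describes letters only.

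**Figure D3:**
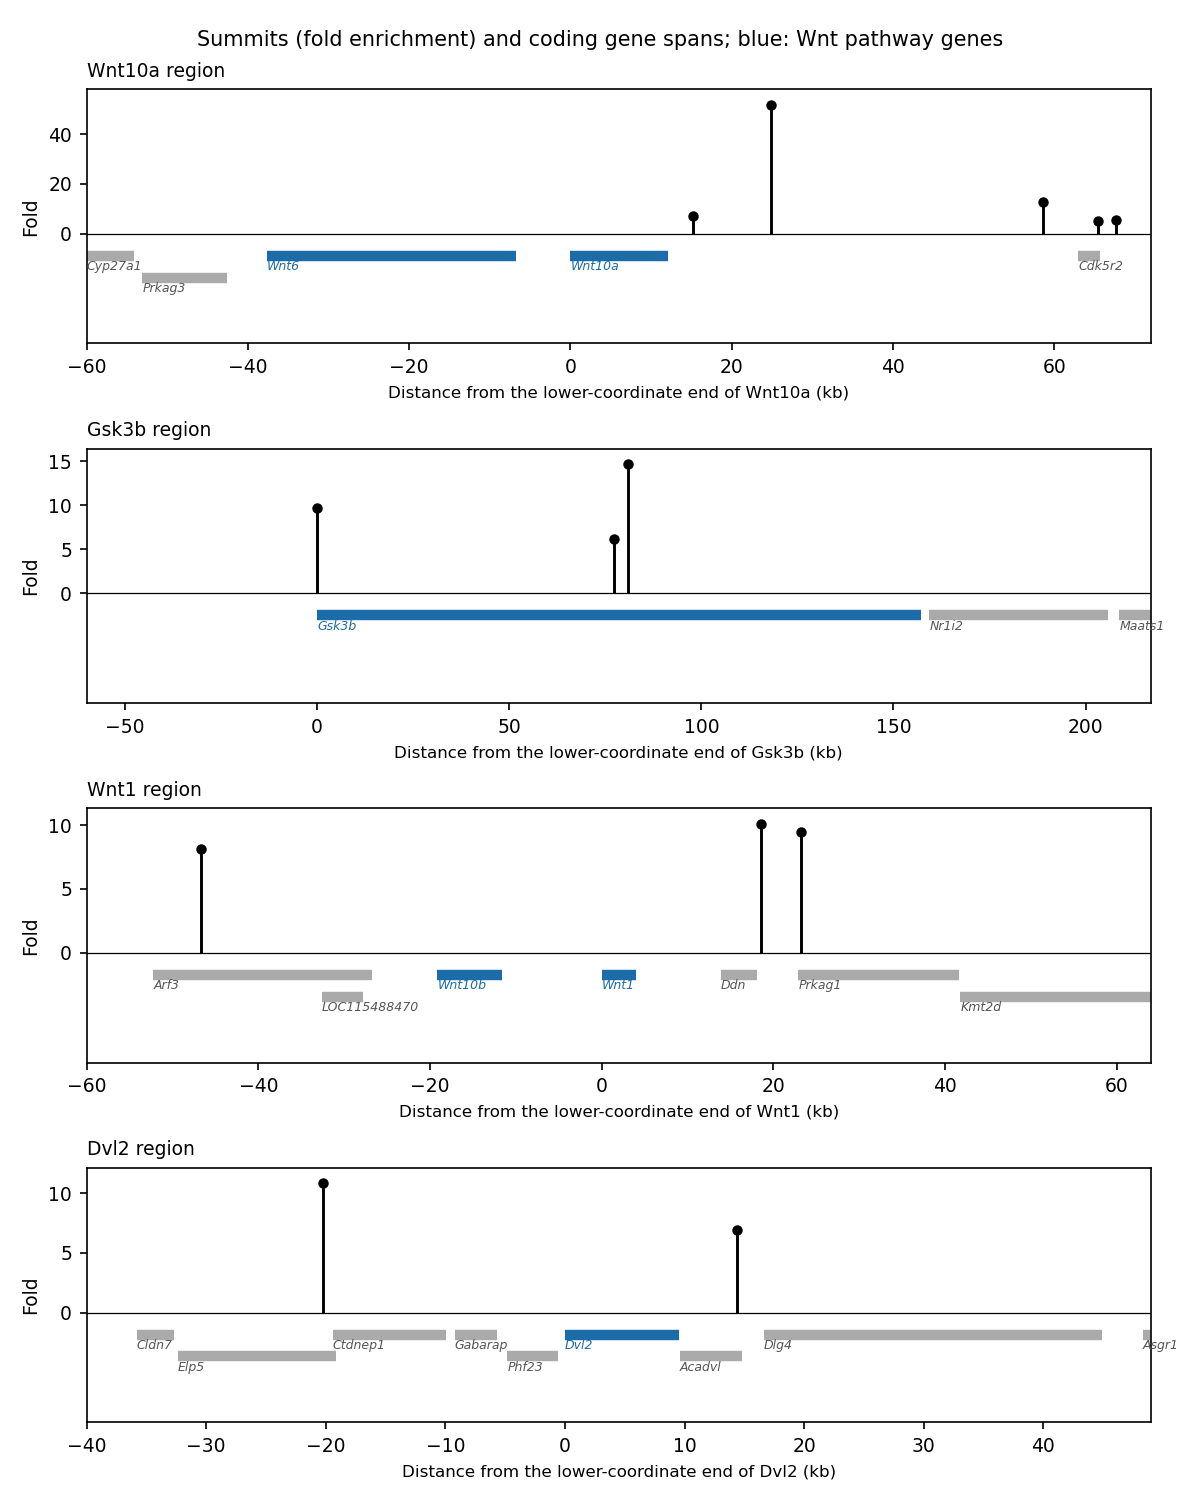
Fold enrichment of every deposited summit (vertical lines) and spans of protein-coding genes (bars, pathway genes in blue) around Wnt10a, Gsk3b, Wnt1 and Dvl2, by distance in kb from the lower-coordinate end of the named gene. Gsk3b carries its summits at and inside the gene, whereas those at Wnt1 and Dvl2 fall in or beside neighbouring genes. The 3 summits at the right of the Wnt10a region lie beyond 30 kb of that gene.

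Axin2 and Dkk2, like Gsk3b, had a summit near an annotated end of their own span. Axin2 encodes a scaffold of the β-catenin destruction complex and is widely used as a transcriptional readout of the canonical pathway. Its fold of 11.1 (7.73 to 15.4) on 33 fragments, at chromosome 11, 108917903 to 108918283, lay inside the span, 327 bp from the lower-coordinate end. The only Axin2 start in the promoter windows lay further in, and the summit was 2194 bp upstream of it. Dkk2, which encodes a secreted antagonist of LRP co-receptors, had a fold of 6.20 (3.81 to 9.59) on 18 fragments at chromosome 3, 132085299 to 132085472. Its summit was 98 bp inside the span and 72 bp downstream of the start given with the promoter window. The Axin2 and Dkk2 intervals overlap.

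Of the other cytoplasmic components, Ctnnb1 had a summit inside the gene, 8229 bp from its 5′ end, with a fold of 5.65 (3.43 to 8.85) on 17 fragments at chromosome 9, 120941516 to 120941741. Dvl2, a Dishevelled gene, was flanked by a fold of 10.8 (7.95 to 14.4) at 20219 bp upstream and a fold of 6.93 (4.50 to 10.2) at 4870 bp downstream. The summit of 10.8, at chromosome 11, 69980207 to 69980684, lay in the promoter window of Elp5, a gene of transfer RNA modification. The summit of 6.93 lay inside Acadvl, a gene of mitochondrial fatty acid oxidation. Axin1, the paralogue of Axin2, had a fold of 6.35 (4.24 to 9.19) at 7904 bp, inside Rgs11, a regulator gene of G-protein signalling. Dvl1, Dvl3, Apc and Gsk3a had none. Dvl1 came nearest to the border from outside of all 52 genes, at 35.1 kb from a fold of 7.32 inside Ccnl2, and Apc, the tumour suppressor of the destruction complex, was 369 kb from the nearest summit.

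The lowest folds belonged to the nuclear factors. Tcf7l2, the TCF gene prominent in thalamus and oligodendrocytes, had a fold of 4.09 (2.27 to 6.89) on 12 fragments at chromosome 19, 55876710 to 55877016. That summit was deep inside the gene, 56932 bp from the nearer end and 18594 bp upstream of an internal start. Lef1 was reached at 22161 bp by a fold of 4.01 (2.40 to 6.35) on 16 fragments, inside Hadh, a gene of fatty acid oxidation. The upper bounds of both fold intervals lie below the list median of 6.91, with backgrounds held fixed at 2.00 for Tcf7l2 and 3.00 for Lef1. By fragments, the Lef1 interval of 9.15 to 26.0 includes the list median of 23. The Tcf7l2 interval of 6.20 to 21.0 does not. Tcf7 and Tcf7l1 had none within 30 kb, at 77.9 kb and 87.4 kb.

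The secreted inhibitors other than Dkk2 were without a summit: Dkk1, Dkk3, Dkk4, Sfrp1, Sfrp2, Sfrp4 and Sfrp5. Dkk3, Sfrp2 and Sfrp5 were 45.2, 46.0 and 46.4 kb from the nearest summit, and Dkk1 was 905 kb away.

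Across windows, the share of the pathway stood above that of all protein-coding genes at 100 kb and below it at 5 kb and in the span alone. These differences were not tested. Within 100 kb, 34 of 52 pathway genes had a summit, 65.4%, against 54.0% of all protein-coding genes, with 16 of 21 regulators, 12 of 19 ligands and 6 of 12 receptors. Within 5 kb there were 9 of 52, 17.3%, against 19.1%, and with the span alone 6 of 52, 11.5%, against 13.7%. Of the 36 genes without a summit within 30 kb, 18 had their nearest between 30 and 100 kb. That distance class held 34.6% of the pathway genes against 21.6% of all protein-coding genes, and the class beyond 100 kb 34.6% against 46.0%. When each summit was given to its nearest protein-coding gene only, 7 of 52 pathway genes were left, 13.5%, against 18.7%. These 7 were Wnt8b, Wnt10a, Axin2, Ctnnb1, Dkk2, Gsk3b and Tcf7l2.

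**Figure D4:**
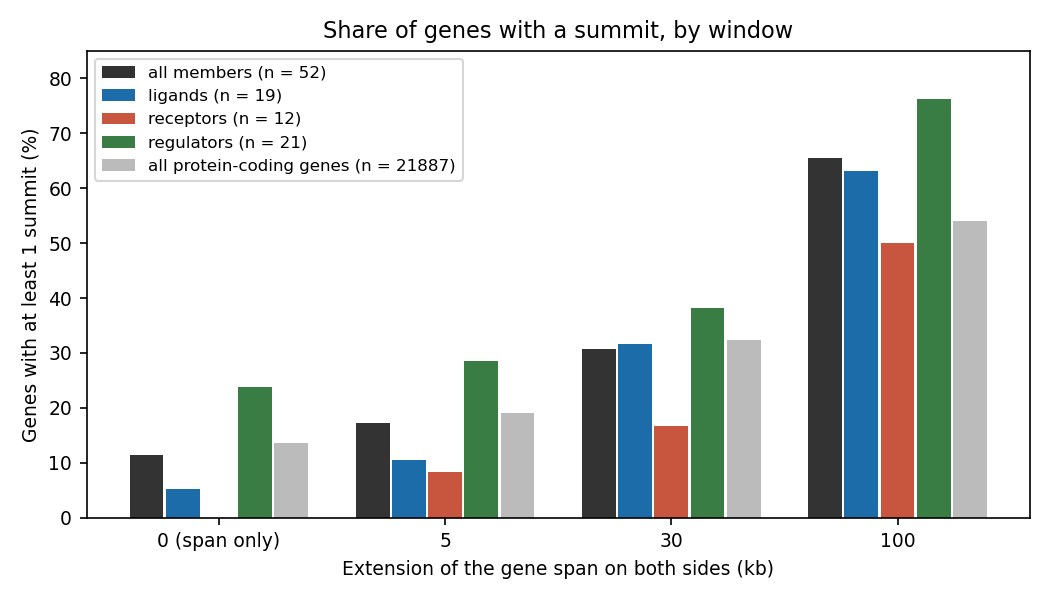
Share of genes with at least 1 summit (%, bars from 0) by extension of the gene span in kb, for all 52 pathway genes, the 3 roles and all protein-coding genes. Regulators stand above the grey background bar in all 4 windows and receptors below it in all 4, with no receptor in the span alone.

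Of 94 other genes of the pathway, outside the 52, 31 had a summit within 30 kb, 33.0%, against 32.4% of all protein-coding genes. Nuclear cofactors had 9 of 19 and further cytoplasmic regulators 9 of 20. Cby1, whose protein binds β-catenin, was reached by a fold of 14.7 at 2685 bp from the gene, although Fam227a was nearer. The corepressor genes Tle3, Tle2 and Tle1 had highest folds of 10.04, 9.45 and 8.80. The Tle2 summit lay 8313 bp from the gene, with Tle6 nearer. Csnk1g2, of the casein kinase 1 family that phosphorylates LRP6, had 4 summits with a highest fold of 16.3 inside the gene. Dact1, a Dishevelled-binding protein gene, followed with 9.40 inside the gene, then Csnk1g1 with 8.28, also inside. Csnk1e had 7.53 at 12973 bp from the gene, with Tmem184b nearer.

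Other receptors and surface modulators had 6 of 18, with Kremen1 and Znrf3 sharing a summit of 7.82, which was 133 bp from Kremen1, a receptor gene for Dkk proteins. Lgr5, an R-spondin receptor gene, had 7.50 at 27799 bp, and Ptk7, a receptor gene of planar polarity, had 6.91 at 8457 bp. Zfc3h1 was nearer to the Lgr5 summit and Srf to the Ptk7 summit. Planar polarity and non-canonical genes had 4 of 16, led by Nfatc2 at 9.87 and Prickle2 at 9.77, then Daam1 at 6.28 and Mapk8 at 4.90. The Daam1 summit of 6.28 lay 28735 bp from the gene. Secreted modulators outside the 52 had 2 of 10, Notum at 4.90 and Rspo4 at 4.72, and the secretion genes Porcn and Wls had 0 of 2. Aspscr1 was nearer than Notum to the Notum summit. Commonly used target genes had 6 of 14, led by Znrf3, Lgr5, Nkd1 at 6.10 and Tnfrsf19 at 5.55, while Myc, Ccnd1 and Sp5 had none. Several of these target genes are also counted among the receptors, modulators or cytoplasmic regulators.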

How the data were processed

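Peaks came from 1 deposited list for 3 IP fractions and 1 input. The submitters' processing notes name MACS2 2.1.1.20160309.0, Bowtie2 2.3.4.2 and the builds mm10 and GRCm38, with no settings and no word on pooling of fractions. Per the file headers, the deposited columns hold positions, the pileup signal at the summit, the fold enrichment as a linear ratio, and p-values and q-values as −log10. From the values, the authors' pileups lie on a grid of step 0.939 (largest residual 0.00574), which gave whole fragments. The background is (pileup + 1) / fold − 1. Library read totals were not used. Names run to 7653, and 169 of these numbers are not among the 7484 peaks.

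Gene spans came from a table of RefSeq GRCm38.p6, and exons were not used here. All 52 symbols and 94 further pathway symbols matched. Counts are given beside all protein-coding genes with no test of the list. All genes with a summit, all without, and up to 4 further genes per group by fold are named. Neighbouring genes and distances singled out beyond this rule were chosen after their values were seen. The members and lists were chosen with earlier results of these data known. Python 3.11.15, pandas 2.3.3, numpy 2.4.6 and scipy 1.17.1 were used, and the assignment was tested on simulated data. The alternatives changed peak thresholds, extreme peaks, windows and the assignment of shared summits.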

Additional observations from a re-analysis of the deposited data

How the results depend on the processing

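No paired analysis was possible because the deposited list holds no value per library. No fraction could be left out for the same reason. Of 8 alternatives, leaving out the 1% highest and 1% widest peaks and measuring from gene ends kept the counts of genes, in all and by role, within 1.5 times. Without the extremes Wnt1 and Wnt10a had 1 summit each in place of 2, and Gsk3b had 2 in place of 3. From gene ends Gsk3b had 1 in place of 3 and Tcf7l2 had 0 in place of 1. With a −log10 q of at least 10, 9 of 52 pathway genes had a summit (17.3% against 20.4% of 21887, or 4472), with 4 regulators and 1 receptor. Above the median fold these were 8 (15.4% against 19.5%, or 4269), with 3 regulators and 1 receptor. With the span alone they were 6, with 1 ligand, 5 regulators and 0 receptors, of 3001 genes in all. With 5 kb they were 9, with 2 ligands and 1 receptor, of 4188. With 100 kb they were 34, with 12 ligands, 16 regulators and 6 receptors, of 11829. With the nearest gene only they were 7, with 2 ligands, 5 regulators and 0 receptors, of 4093. These windows change what is counted by construction, and both peak thresholds use fewer peaks, 3986 and 3714. The regulators' share passed below the background under both thresholds, at 19.0% and 14.3%. The median fold, 6.72 in the main setting, ran from 6.20 to 9.57 over 5 alternatives. The 9.57 came from the 12 summits with a −log10 q of at least 10, a threshold that favours higher folds by construction. Among the 36 genes without a summit, Wnt2b and Fzd8 lie between peaks whose numbers skip 1, so a peak there may not be among those used here. Depth limits the order of folds, since most summits rest on under 30 fragments.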
